A study of Mus musculus with 2 samples.

Results

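The genes described here encode the nuclear pore complex and the receptors that carry cargo through it, as found in an ELAVL2 RNA immunoprecipitation from newborn mouse ovary. Members were the genes in the authors' deposited gene table whose symbol begins with Nup, Xpo, Ipo, Kpna, Kpnb, Tnpo, Nxf or Ranbp in the numbered forms of those families, pseudogenes left out. The rule found 31 of the 11969 genes in the table. A peak overlapped 27 of them, out of 6158 overlapped genes in all, and the other 4 were paired only with a peak outside them. The 27 genes held 116 peaks, of 28332 in the series.

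The tested sample was RNA pulled down with an antibody against ELAVL2 from P0 ovary (ELAVL2 RIP), and its reference was input RNA, 5% of the same kind of lysate. The labels give no genotype or strain, and 100 newborn ovaries were pooled for the homogenate, which met 5 ug of antibody for 6 h. There was 1 RIP sample and 1 input sample, so differences below lack a replicate check, and no control pulldown was analysed here. Whole ovary mixes oocytes with somatic cells, and a larger signal from more cells of a type cannot be told apart from more RNA per cell. The RIP had 172711531 aligned tags and the input 210270620, of which 13787676 and 19479946 were left at 1 tag per position and strand. Of 10 oocyte marker genes 5 were overlapped by a peak (Ddx4, Dazl, Lhx8, Ybx2 and Kit), and Gdf9, Zp3, Figla, Nobox and Sohlh1 were not. None of 4 pregranulosa, 3 erythroid, 2 immune and 2 testis somatic markers was overlapped, though the pregranulosa marker Amhr2 was paired with 3 peaks outside it. The share over all protein-coding genes was 23.4%, and lists this short allow no comparison between cell types. A peak list gives no level for a gene without a peak, so it cannot show which cells were present.

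The nuclear pore is built from nucleoporins in stacked rings: an outer ring of Y-shaped complexes, an inner ring, a central channel lined with phenylalanine-glycine repeats, filaments on the cytoplasmic side and a basket on the nuclear side. Importins and exportins carry proteins and RNAs through the channel, and the small GTPase Ran sets the direction, loading exportins and unloading importins in the nucleus. In oocytes these genes serve the large nucleus, the germinal vesicle, and part of the transport machinery of the early embryo is laid down as maternal RNA or protein. ELAVL proteins bind U-rich and AU-rich stretches of RNA, often in 3' untranslated regions, and act on splicing, stability and translation.

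Each peak is given by its RIP pileup, the number of overlapping RIP tags at the summit, its input level, the scaled local input background in tags, and its fold enrichment, the ratio of the RIP to the input value with 1 added to each. These are the authors' values or follow from them, and -log10 q is the peak caller's score against that background. Intervals on a fold are exact Poisson 95% intervals of the RIP pileup with the input level held fixed, so they cover counting of RIP tags only.

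Nuclear pore and transport receptor genes held peaks often, at modest folds. The reference annotation (GRCm38.p6, the assembly of mm10) holds 56 protein-coding genes whose symbol there fits the naming rule, of which 27 (48.2%, exact binomial 95% interval 34.7 to 62.0, counting only) were overlapped by a peak in the table. The share over all 21896 reference protein-coding genes was 23.4%. The count leaves out Nup58 and Nup42, which the table and the reference name Nupl1 and Nupl2. With both it was 28 of 58, a count chosen after seeing the data. Family genes are long, with a median body of 51.2 kb in the overlapped and 40.8 kb in the other 29, against 17.1 kb over all protein-coding genes. By length, 3 of 11 family genes up to 20 kb were overlapped (27.3%, against 10.9% of all genes that long) and 9 of 18 between 20 and 50 kb (50%, against 28.6%). Between 50 and 100 kb the family stood near the background, with 10 of 21 (47.6%, against 41.2%), and between 100 and 400 kb 5 of 6 were overlapped (83.3%, against 52.3%). Expression in the ovary was not available as a value, so its part in these shares was not tested.

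The best fold of the 27 overlapped members had a median of 3.78 (quartiles 3.10 and 4.73), against 4.38 (3.05 and 5.86) over all 6158 overlapped genes. A fold of at least 5 was reached by 7 members (25.9%), each through 1 peak with a pileup of 6 to 28 tags, against 39.9% of all overlapped genes. The members held a median of 4 peaks each, against 2 over all overlapped genes, and 10 of the 27 held at least 5 (37.0%, against 27.7%). Their tallest peaks were also higher, with a median of 45 tags over members, against 34 over all overlapped genes. The members' peaks were thus more numerous per gene and taller than the medians over all overlapped genes, at a lower median fold. The members' bodies were also longer (median 55.9 kb against 38.7 kb), and the part of length in the peak number was not tested. With peaks less than 500 bp apart merged, the 116 peaks became 88. The 10 genes with at least 5 peaks include Nup35 and Tnpo2, where the gene of most peaks is uncertain (below). A total of 3 of their 116 peaks reached a -log10 q of 10, in Nup93, Nup54 and Kpna7. The share of all peaks that did so was not computed. The median -log10 q was 3.68 over member peaks and 4.05 over all 21215 peaks in genes, where the highest was 31.1.

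**Figure D1:**
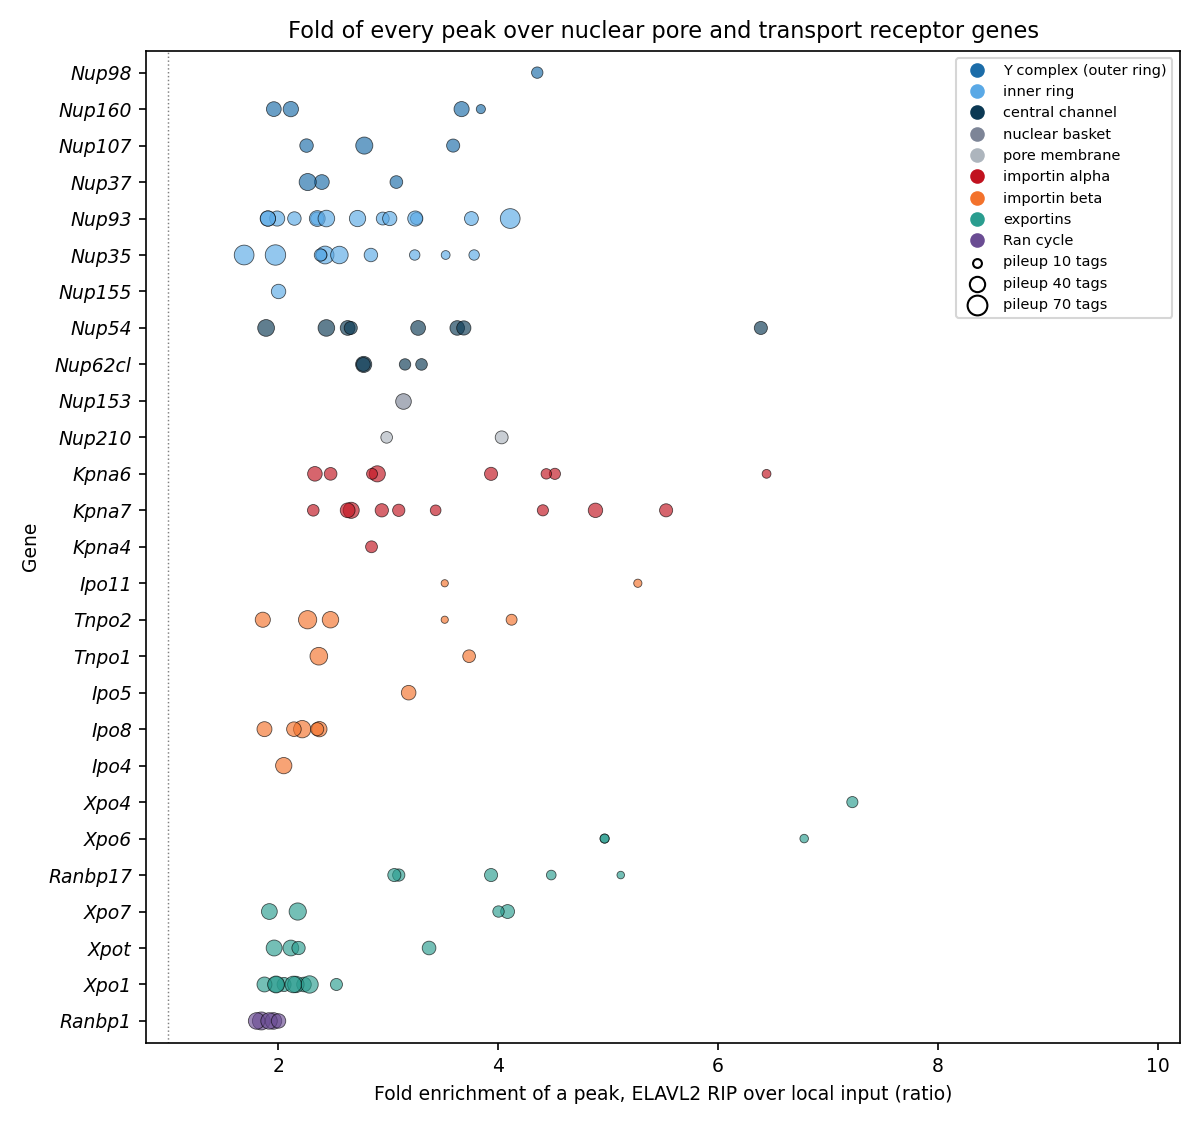
Fold enrichment of each of the 116 peaks over the 27 overlapped members (ratio, horizontal axis) by gene, coloured by role and sized by RIP pileup; the dotted line marks a fold of 1. The highest folds, 7.22 in Xpo4 and 6.78 in Xpo6, were at small pileups, while the 5 peaks of Ranbp1 lay between 1.80 and 2.00.

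The outer ring gave 4 overlapped genes of 7 in the family: Nup107, Nup160, Nup37 and Nup98. Such counts by role are small, here and below. They stand beside 23.4% of all protein-coding genes, 28.6% of those of 20 to 50 kb and 41.2% of those of 50 to 100 kb. Nup160, which encodes a scaffold subunit of the Y complex (chromosome 2, 90677215 to 90736328 in the table), held 4 peaks. The 3 over its last 10% had RIP pileups of 40, 37 and 39 tags against input levels of 18.4, 18.4 and 9.91. Their folds were 2.11, 1.96 and 3.67. The peak nearest the end of the table's body, with a like RIP height and less input, thus stood above the other 2. The reference body ends further on, at 90739327. The remaining peak, in mid-gene, had 11 RIP tags against a level of 2.12 (fold 3.84, interval 2.08 to 6.62).

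Of all 116 peaks, the Nup160 peak of fold 2.11 was the only one whose bases lay in a sequence table used here, because a noncoding RNA gene on the opposite strand, Gm39872, starts beside it. The 30 bases around its summit on the Nup160 strand (chr2:90735523-90735552, GRCm38.p6, RefSeq) are shown to let the summit be read, with the bases inside the called peak in capitals.
Nup160 summit: tctgtaaccttGGTGCCTCTTAGGGCTTAA
This stretch holds 11 T in 30 bases and no run of T longer than 2. The peaks carry no strand, so reads from the opposite strand cannot be told apart here, and nothing follows from 1 summit for the others.

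Nup107, which encodes a stem subunit of the same complex, held 3 peaks. Its tallest peak stood at 99.6% of the gene body with 51 RIP tags against an input level of 17.7 (fold 2.78), and the highest fold, 3.59, was inside the gene at 28 against 7.08. Nup37, a small beta-propeller subunit, held 3 peaks with 37, 26 and 51 RIP tags against 14.9, 7.79 and 21.9. These gave folds of 2.40, 3.07 and 2.27, and again the tallest lay at the end of the gene, at 99.3%. In both genes the peak with the most RIP tags did not have the highest fold.

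Nup98 encodes a precursor that is cut into the repeat nucleoporin NUP98 and the Y-complex subunit NUP96. The table gave it 1 peak, with 20 RIP tags against 3.82 (fold 4.35, interval 2.74 to 6.61), at 85.9% of its body. The reference body runs 14.8 kb further at the 3' end, and 3 more peaks lay there that the table paired with Chrna10. These had 51, 55 and 11 RIP tags against input levels of 24.1, 24.1 and 0.708, with folds of 2.07, 2.23 and 7.03. On the longer model Nup98 would therefore hold 4 peaks, with a best fold of 7.03 and its tall peaks near the end. The table's single peak understates the signal over the reference gene.

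The inner ring gave the member with the strongest peak and the one with the least certain name. Nup93, which encodes the linker that holds the inner ring together (chromosome 8, 94214597 to 94315066), held 14 peaks, the most of any member. Its peak at chr8:94314669-94314842, at 99.7% of the table's body, had 70 RIP tags against an input level of 16.3. The fold was 4.11 (interval 3.22 to 5.18) and the -log10 q 16.9, the largest among the members. The other 13 had 23 to 48 RIP tags and folds of 1.90 to 3.76. All 14 lay in the last 30% of the body, 7 of them in the last 10%, and all 14 lay in the reference body, which ends 13.0 kb further on.

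Nup35 encodes a membrane-binding subunit of the inner ring, and the table gave it 10 overlapping peaks. None lay in the reference body, which begins 21.6 kb after the start of the table's body. The 10 peaks stood 4.46 to 17.8 kb before the reference start. Of these, 6 also overlapped Dusp19, a phosphatase gene whose reference body (80617214 to 80631661 on chromosome 2) covers those 6. The tallest peak of any member was among these 6, with 75 RIP tags against an input level of 37.5 (fold 1.97), and beside it stood one with 70 against 41.1 (fold 1.69). Both also lay in the reference body of Gm13690, and the one with 70 tags in that of Mir684-1. The other 4 lay in no other gene of the table, with 16 to 30 RIP tags and folds of 2.38 to 3.78. One further peak lay inside the reference body, near its end, with 9 RIP tags against 1.38 (fold 4.21), and the table paired it with Gm13690. Whether the 10 peaks belong to Nup35 transcripts cannot be settled from these files.

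Nup155, the remaining inner ring member with a peak, had 35 RIP tags against 17.0 at 99.5% of its body (fold 2.00). Nup205 was paired only with a small peak 19.9 kb upstream (fold 4.65, pileup 9), and Nup188, its structural relative, had no row in the table.

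**Figure D2:**
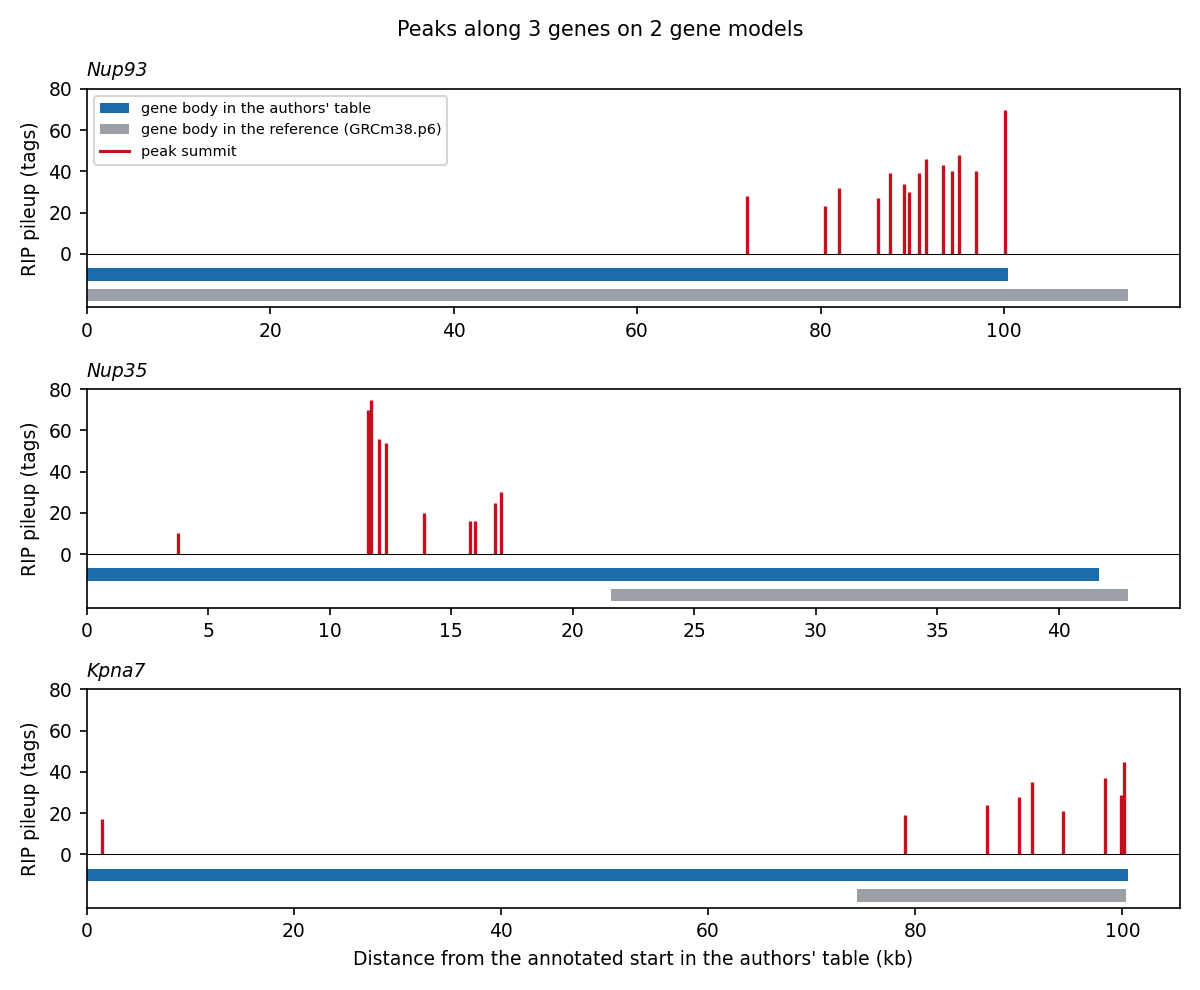
RIP pileup (tags, vertical axis) at each peak summit against distance from the annotated start in the authors' table (kb) for Nup93, Nup35 and Kpna7, with the gene body in the table (blue) and in the reference (grey). The 14 Nup93 peaks crowd towards the 3' end, the 10 Nup35 peaks lie before the reference body, and 8 of 9 Kpna7 peaks sit within the short reference body.

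In the central channel, Nup54, a repeat nucleoporin that works with NUP62 and NUP58 (chromosome 5, 92415540 to 92435219), held 8 peaks. Its best peak, at chr5:92431033-92431089 and 21.1% of the body, had 28 RIP tags against an input level of 3.54. The fold was 6.39 (interval 4.32 to 9.14) and the -log10 q 11.6, the second largest of the members, so here the best enrichment stood far from the 3' end. The other 7 had 28 to 49 RIP tags and folds of 1.89 to 3.69, and the tallest of them was again at the end of the gene, at 98.5%. Nup62cl, which encodes a relative of the C-terminal part of NUP62, held 4 peaks with folds of 2.77 to 3.30, and Nup62 itself had no row. The gene of the partner NUP58, under its older symbol Nupl1 no member, held 8 peaks, of which the highest fold was 3.62 (18 RIP tags) and the highest -log10 q 5.55. The basket gene Nup153 had 1 peak with 42 RIP tags against 12.7 (fold 3.13), and Nup210, which encodes a membrane glycoprotein of the pore, had 2 at its 3' end with 21 and 27 tags against 6.37 and 5.95 (folds 2.99 and 4.03).

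Of the cytoplasmic filament genes no family member was overlapped. Ranbp2, which encodes the large filament protein NUP358, was paired with 4 peaks 23.9 to 36.6 kb upstream, and all 4 lay inside another gene, Lims1. Their folds of 2.06 to 2.93 are therefore values of Lims1. Nup214, Nup88 and Nup42 had no row in the table.

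All 3 importin alpha members were overlapped, of 6 such genes in the family (against 23.4% of all protein-coding genes). Importin alphas read the classical nuclear localisation signal and bridge the cargo to importin beta. Kpna6, an importin alpha known from the mouse to be needed as a maternal product in the early embryo (chromosome 4, 129643980 to 129672767), held 8 peaks. Its highest fold, 6.44 (interval 3.39 to 11.4), rested on 10 RIP tags against an input level of 0.708, that is 1 input tag. Its best -log10 q, 6.39, was at a peak with 28 RIP tags against 6.37 (fold 3.93), and the tallest peak, at 99.2% of the body, had 45 against 14.9 (fold 2.90).

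Kpna7, the importin alpha best known from mouse oocytes and early embryos, held 9 peaks. The strongest, at chr5:144992696-144992758, had 35 RIP tags against an input level of 6.37 (fold 4.88, -log10 q 10.6). The next, at chr5:144993934-144994012, had 28 against 4.25 (fold 5.53, interval 3.74 to 7.90, -log10 q 9.93). The other 7 had 17 to 45 RIP tags and folds of 2.32 to 4.41, so every peak of Kpna7 had a fold of at least 2.32. The table's body spans 101 kb and the reference body 25.9 kb, which still held 8 of these 9 peaks. Kpna4 had 1 peak with 22 RIP tags against 7.08 (fold 2.85), which lay 4.08 kb beyond the reference 3' end and inside the longer body of the table. Kpna1, Kpna2 and Kpna3 had no row.

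Among the importin beta receptors 6 of 12 were overlapped (against 23.4% of all protein-coding genes, and 28.6% and 41.2% of those of 20 to 50 and 50 to 100 kb). Tnpo2, a transportin that imports RNA-binding proteins, held 5 peaks, of which the 4 at its end had 18, 39, 47 and 59 RIP tags against 3.61, 20.5, 18.4 and 25.5. Their folds were 4.12, 1.86, 2.47 and 2.27, and all 4 also overlapped A230103J11Rik, so their gene is uncertain. Tnpo1, its paralogue, held 2 peaks over its last 10%, with 55 RIP tags against 22.6 (fold 2.37) and 26 against 6.23 (fold 3.74). Both transportin genes had their tallest peak at the very end, at 99.4% of the body in Tnpo2 and 99.7% in Tnpo1.

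Ipo8, which carries Argonaute and SMAD proteins among others, held 5 peaks within a narrow range of folds, 1.87 to 2.37, at 28 to 53 RIP tags. Ipo5, an importer of histones and ribosomal proteins, had 1 peak with 36 against 10.6 (fold 3.19). Ipo4 had 1 with 46 against 21.9 (fold 2.05), which lay 231 bp before the reference start and also overlapped Tm9sf1. Ipo11 had 2 small peaks, with 5 and 8 RIP tags against 0.708 (folds 3.51 and 5.27), and a taller peak 512 bp upstream in no gene, with 13 tags and a fold of 8.20. Kpnb1, which encodes the principal importin beta, was paired only with a peak 18.1 kb upstream inside Npepps (fold 2.02), and Ipo9 with one 7.64 kb upstream inside Nav1 (fold 3.69). Ipo7, Ipo13, Tnpo3 and Ranbp6 had no row.

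Exportins held peaks in 6 of the 7 genes that fit the naming rule, and these genes are long. Cse1l, an exportin gene outside the rule, had no peak. Of the 6, 2 had reference bodies of 20 to 50 kb, 2 of 50 to 100 kb and 2 of 100 to 400 kb, lengths at which 28.6%, 41.2% and 52.3% of all protein-coding genes were overlapped. Some held tall peaks of low fold and others small peaks of high fold. Xpo1, the CRM1 receptor for leucine-rich export signals (chromosome 11, 23256041 to 23298249), held 9 peaks with 23 to 53 RIP tags against input levels of 8.49 to 24.8. Their folds were all between 1.87 and 2.53, the narrowest range among the members with more than 5 peaks. Xpot, the tRNA exportin, held 4 peaks with 43, 44, 31 and 29 RIP tags against 19.8, 21.9, 8.49 and 12.7 (folds 2.11, 1.96, 3.37 and 2.18). Xpo7, a broad-range transport receptor, held 4 in the last 10% of its body with 32, 20, 52 and 43 against 7.08, 4.25, 23.4 and 21.9. Its 2 taller peaks had the lower folds, 2.18 and 1.92, against 4.09 and 4.00 for the other two.

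Xpo4, which exports the translation factor eIF5A, had 1 peak, at chr14:57640741-57640811, with the highest fold of any overlapping member peak. It had 19 RIP tags against an input level of 1.77, a fold of 7.22 (interval 4.49 to 11.1) and a -log10 q of 9.62, at 29.2% of the body. Xpo6, the exporter of actin, held 3 neighbouring peaks in the middle of the gene (49.3% to 49.7% of the body) with 9, 11 and 11 RIP tags against 0.474, 1.42 and 1.42 (folds 6.78, 4.97 and 4.97). Ranbp17, an exportin of the Xpo7 type, had the longest body of the members (302 kb). It held 5 peaks between 14.5% and 61.5% of its body, with 6 to 28 RIP tags and folds of 3.05 to 5.11. The highest fold (interval 2.34 to 10.3) rested on 6 RIP tags against 0.369, which is the genome-wide background level. None of the peaks of Xpo4, Xpo6 and Ranbp17 lay in the last 10%. Xpo5, the exporter of microRNA precursors, had no row.

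Ranbp1, which helps to discharge Ran from its transport complexes (chromosome 16, 18239784 to 18248732), held 5 peaks spread from 1.14% to 97.1% of its short body. Their RIP pileups were 57, 48, 48, 47 and 35 tags against input levels of 30.4, 24.1, 26.2, 24.1 and 17.0. All 5 folds lay between 1.80 and 2.00, the lowest best fold of the members together with Nup155. Ranbp3 and Ranbp3l had no row, nor did the mRNA export receptors Nxf1, Nxf2, Nxf3 and Nxf7 or the ligase subunits Ranbp9 and Ranbp10. In all, 25 of the 56 family genes had no row, so no peak was paired with them in the table used here. The other 31 (55.4%) were paired with a peak, overlapping or outside, against 31.8% of all 21896 protein-coding genes.

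The other genes of the pathway, from lists of pore, Ran and mRNA export genes that the naming rule does not take, were overlapped in part. Of 15 genes of the TREX and related export complexes 5 were overlapped (33.3%, against 23.4% of all protein-coding genes). Alyref, the adaptor that hands mRNA to NXF1, had 6 peaks with a best fold of 3.83 at 76 RIP tags and a -log10 q of 16.8, close to that of Nup93. Thoc2 had a best fold of 6.27 at 11 tags, Thoc1 4.76 at 24 tags and Eny2 4.00 at 37 tags. Ddx19b, an export helicase gene, had 6 peaks with a best fold of 3.64, while its close copy Ddx19a had 7 paired peaks, none overlapping it and the nearest 205 bp away, and how reads of such near copies were placed was not tested. Of the Ran cycle genes Ran had 3 peaks (best fold 2.53) and the Ran importer Nutf2 had 7 (3.19), and Rcc1, Rangap1 and Rangrf had none. Seh1l, of the Y complex, had 12 peaks (2.94) and the membrane nucleoporin gene Ndc1 2 (3.24). Sec13, Ahctf1, Rae1, Gle1, Aaas, Tpr, Pom121, Pom121l2 and Cse1l were not overlapped.

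Along the genes, summits were most frequent at the 3' end. Of the 105 member peaks in exactly 1 gene, 45 (42.9%, exact binomial 95% interval 33.2 to 52.9, counting only) had the summit within the last 10% of the body, against 46.6% (45.9 to 47.3) of 19371 peaks over all genes. A further 18 (17.1%, 10.5 to 25.7) lay between 80% and 90% of the body, against 10.6% (10.1 to 11.0), and only 3 (2.86%, 0.593 to 8.12) in the first 10%, against 4.68% (4.39 to 4.99). Within 5 kb of the annotated 3' end lay 38.1% (28.8 to 48.1) of the member peaks, against 53.6% (52.9 to 54.3) over all genes. The 27 members had a median body of 55.9 kb in the table, against 38.7 kb over all overlapped genes, and the part of body length in these shares was not tested. Of the 27, 19 had at least 1 summit in the last 10%. The 8 without one were Nup35, Nup98, Ipo4, Ipo5, Ipo11, Xpo4, Xpo6 and Ranbp17. The same count over all overlapped genes was not made, so the 19 cannot be read as particular to the members.

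The tallest and the most enriched peak of a gene were often not the same. Among the 20 members with at least 2 peaks, the tallest lay in the last 10% in 16 (80%, 56.3 to 94.3), against 61.0% (59.4 to 62.5) of 3982 such genes in the series. The peak with the highest fold lay there in 6 (30%, 11.9 to 54.3), against 35% (33.5 to 36.5). Member peaks in the last 10% had a median of 40 RIP tags against an input level of 16.3 and a median fold of 2.37, while the other 60 had 28 tags against 7.79 and a median fold of 3.21. Over all genes the medians were 2.84 in the last 10% and 3.82 elsewhere, the same order.

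**Figure D3:**
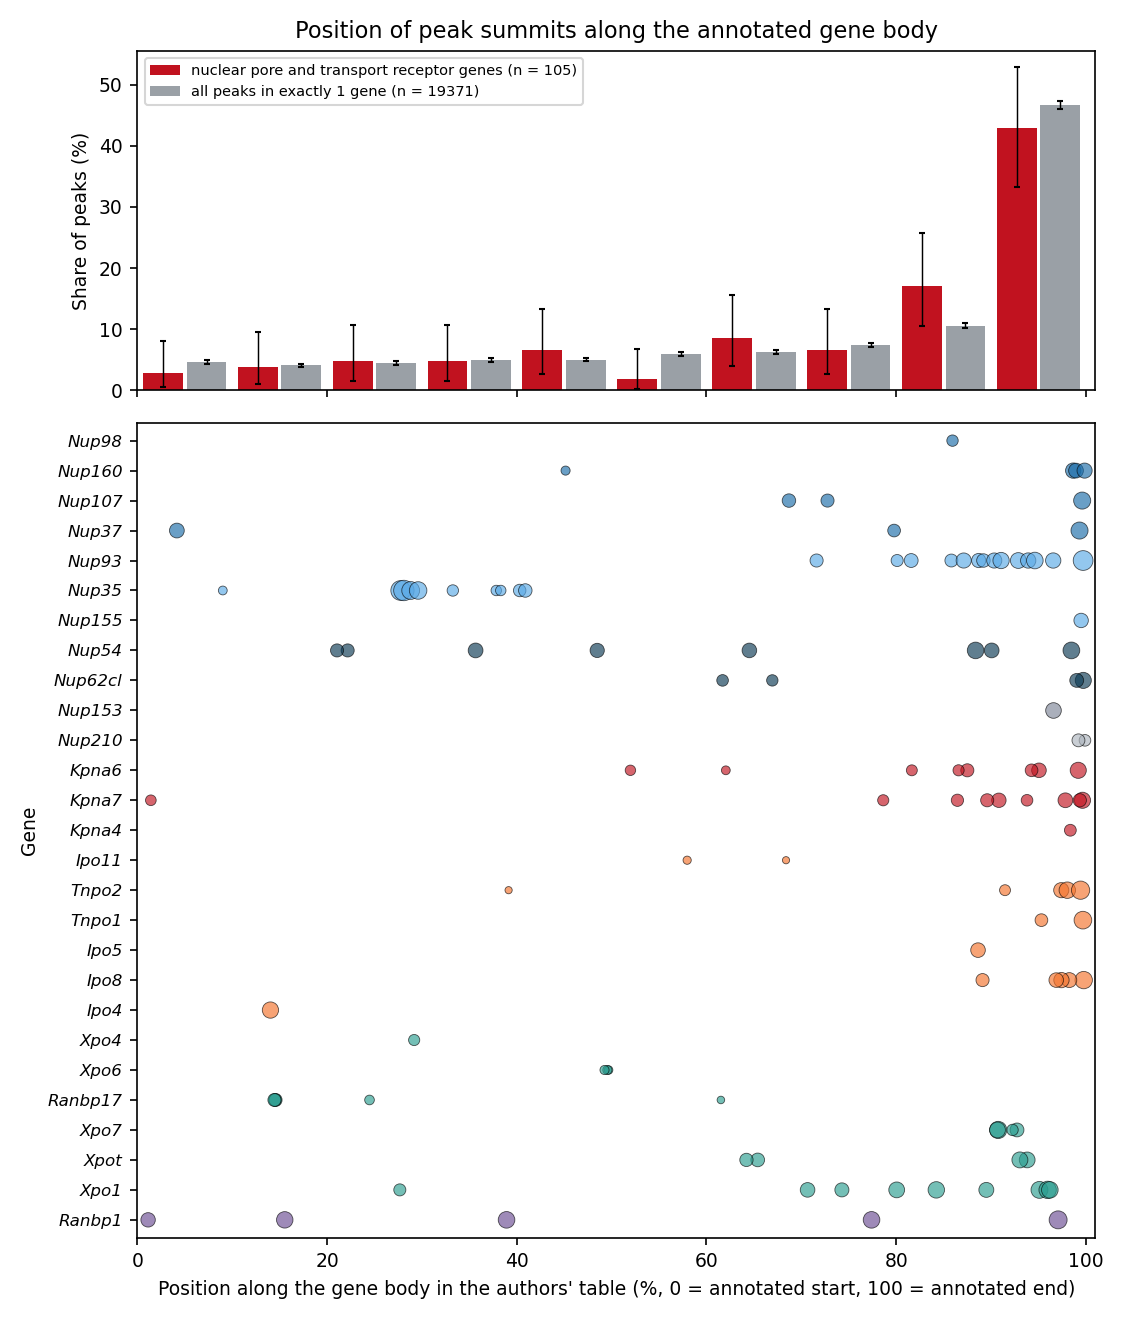
Top, share of summits (%) in steps of 10% of the annotated gene body for the 105 member peaks in exactly 1 gene (red) and all 19371 such peaks (grey), with exact binomial 95% intervals. Bottom, all 116 member peaks by gene, sized by RIP pileup and coloured by role as in the plot of folds; in 16 of the 20 genes with at least 2 peaks the largest symbol lies in the last 10%, and in Nup35, Ipo11, Xpo6 and Ranbp17 it does not.

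The folds moved with the input level. Over the 116 member peaks the rank correlation of fold with input level was -0.88, and over all 21215 peaks in genes it was -0.90; both quantities share the input level by construction, so these are descriptions only. Member peaks lay at higher input, with a median level of 11.1 tags (quartiles 6.37 and 19.1) against 7.79 (2.26 and 14.9) over all peaks in genes. In the highest quintile of input levels over all peaks lay 38 of the member peaks (32.8%), and in the lowest quintile 8 (6.90%). From the lowest to the highest quintile, the median fold of member peaks was 5.04, 4.35, 3.09, 2.63 and 2.00, against 5.80, 4.30, 3.26, 2.60 and 2.1 over all peaks in genes. Members were thus lower than all peaks in the lowest quintile, where they had 8 peaks, and near them in the others. The part of the input level in the lower median fold of the members was not tested.

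**Figure D4:**
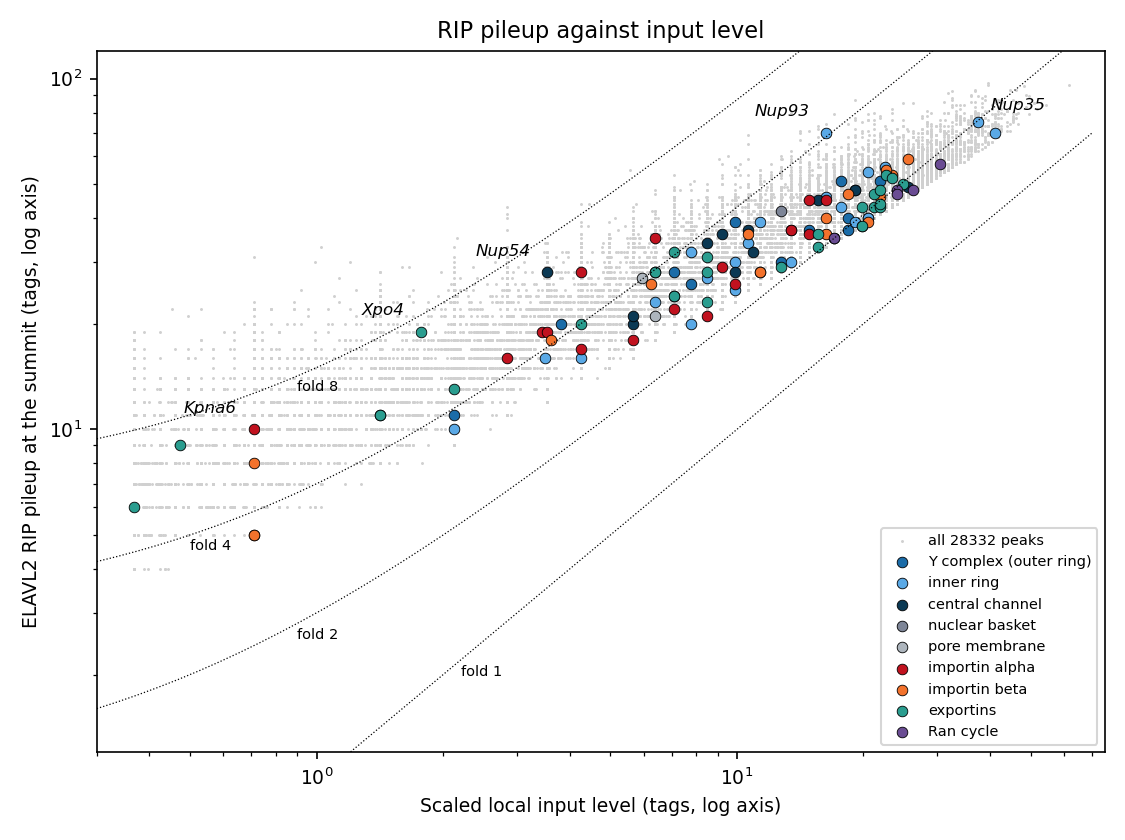
ELAVL2 RIP pileup at the summit against scaled local input level (tags, both axes logarithmic) for the 116 member peaks, coloured by role, over all 28332 peaks (grey); dotted lines mark folds of 1, 2, 4 and 8 with 1 added to each value. Member peaks follow the band of all peaks, with Nup93 (70 tags against 16.3) at its upper side and the tallest Nup35 peaks (75 and 70 tags) at its lower right.

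Peaks outside a member were also paired with some of them. In all, 16 pairs joined 10 members to a peak outside them, all 16 upstream, and 10 of these peaks lay inside another gene. The same counts over all genes were not made here, so neither number nor direction can be read as particular to the members. The 6 in no gene of the table included the Ipo11 peak given above, one 622 bp upstream of Nup54 (14 tags against 2.12, fold 4.80) and one 3.07 kb upstream of Ranbp17 (9 against 1.42, fold 4.14). None of the 54 promoter windows of family genes in the RefSeq table, from 250 bases before to 50 after a start, overlapped a peak. Over all 32851 windows 107 did (0.326%).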

How the data were processed

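The submitters' processing notes name CASAVA (1.8.2), FastQC (0.11.2), TopHat2 (2.0.8b), the peak caller MACS2 (2.1.0.20140616) and, as genome build, mm10. The authors called peaks, per the file headers, on 3 pooled RIP lanes against 3 pooled input lanes at a q cutoff of 0.05, with tags extended to 50 bp and local background windows of 1000 and 10000 bp. Strand and splicing are not used by this caller, and keeping 1 tag per position limits tall peaks. Pileup is a signal, fold enrichment a ratio and -log10 q a score as the authors deposited them. The sources used here do not say how the authors paired peaks with genes.

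The gene table had 85730 rows, and 42176 exact repeats were dropped. A row counted as overlapping unless marked upstream or downstream. Input level was computed from pileup and fold, and a Poisson -log10 p recomputed from it was within 5.62e-05 of the deposited value for every peak. Symbols of 9623 table genes (80.4%), all 31 members among them, matched the reference gene table. The overlap and position code was tested on simulated data. All members are named, with the strongest peaks of each role in full. Members, roles and lists were chosen with earlier results of these data known. A genome sequence was not used here, so the planned search for U-rich stretches in peaks was left out. With 1 sample per group no test was made. The software was Python 3.11.15 with the packages numpy (2.4.6), pandas (2.3.3), scipy (1.17.1) and, for the plots, matplotlib (3.10.9).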

Additional observations from a re-analysis of the deposited data

How the results depend on the processing

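With 1 RIP and 1 input sample, no alternative tests the spread between experiments. The 27 overlapped members became 23 at a -log10 q of at least 3, where the share of all protein-coding genes was 19.5%, 21 at a fold of at least 3 (18.1%) and 24 at a pileup of at least 20 (17.1%). They became 26 from peaks in exactly 1 gene (21.1%) and 24 when an overlapping peak also had to lie in the reference body. Counting any peak in a reference body, however paired, gave 25 of the 56 family genes (44.6%), against 24.1% of all protein-coding genes. From peaks paired with exactly 1 gene they fell to 7 of the 56 family genes, since most peaks were also paired with a neighbour; the background share fell too, to 9.76%. The 116 peaks became 72 at a -log10 q of at least 3, 48 at a fold of at least 3 and 8 when paired with exactly 1 gene. The share of summits in the last 10% of the body was 19.6% at a fold of at least 3 and 25% of the 8 peaks paired with exactly 1 gene; the cause was not tested. It was 37.4% along reference bodies, 44.6% without Nup35 and 41.8% without Nup93, 3 alternatives chosen after seeing the data. The median best fold ranged from 3.34 at a pileup of at least 20 to 4.30 without the pseudocount. Without the pseudocount 5 of 27 best folds moved beyond their counting interval. Folds at an input level near 1 tag rest on few RIP tags.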

Other observations

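RANBP9 and RANBP10 belong to the CTLH complex, a ubiquitin ligase, and not to the pore. Neither Ranbp9 nor Ranbp10 had a row in the table, while 7 of the other 9 genes listed for that complex were overlapped by a peak (77.8%, against 23.4% of all protein-coding genes). Rmnd5a, which encodes a RING subunit, held 12 peaks with a best fold of 3.35 at 31 RIP tags, and Armc8, a scaffold subunit, held 10 with 3.47. Wdr26 held 8 (3.22), Gid4, the substrate receptor, 6 (2.84), Gid8 4 (2.60) and Mkln1 3 (3.53). Ypel5 held 7 and had the highest fold of the list, 9.95 at 16 RIP tags, with a -log10 q of 12.3. Maea and Rmnd5b had no peak paired with them. The list was chosen with earlier results of these data known, and no difference between its genes was tested.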
